A study of Mus musculus with 4 samples.

Results

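Fut2, B4galnt2, Cmah, St6gal1 and Hs3st3b1, 5 genes encoding enzymes that build or modify sugars on the epithelial surface, were examined for accessible chromatin in mouse intestinal stem cells. Accessible DNA was mapped by ATAC-seq, an assay that cuts and tags open chromatin with the transposase Tn5. Large-intestinal stem cells (LISC) were sorted as Lgr5-EGFP+ cells from crypts of the cecum to the rectum. Small-intestinal stem cells (SISC) were sorted as Lgr5-EGFP+/CD24- cells from both ends of the small intestine, next to the pylorus and next to the cecum. Every library came from untreated Lgr5-EGFP-IRES-creERT2 mice of 6 to 12 weeks, with 50000 cells lysed and 10 PCR cycles. Each group held 2 libraries. Whether these are different animals is not stated in the labels, so their spread may be partly technical. The reporter marks cells in which the Lgr5 locus is active. A CD24 gate is named for SISC alone, so organ and gate cannot be told apart.

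Overlapping peaks of the 4 lists (1 bp or more) were merged, and regions in or within 100 kb of a gene's body were given to that gene. This took 173 of 119965 regions. A region called in both LISC libraries and in no SISC library is termed LISC-only, the converse SISC-only, and one called in all 4 libraries shared. LISC-only and SISC-only regions together are called group-only. The genes were picked on a shared theme with group-only regions of this same comparison known, so their counts and ranks are a description and were not tested. With 2 libraries against 2 there are 3 ways to split the libraries, so no exact test could have gone below a p of 1 in 3.

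Cells coat their surface and secreted mucins with glycans, chains of sugars that transferases in the Golgi extend step by step. The last sugars added are often fucose, N-acetylgalactosamine or sialic acid, and in the gut they face mucus, microbes and lectins. Fut2 adds fucose to terminal galactose, making the H antigen of secretions. B4galnt2 adds N-acetylgalactosamine to terminal chains, making the Sd(a) antigen. Cmah hydroxylates the activated form of the common sialic acid to its glycolyl form, and St6gal1 attaches sialic acid to galactose, mainly on N-glycans. Hs3st3b1 sulfates heparan sulfate, the chain of cell-surface proteoglycans that bind growth factors.

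The sequence upstream of the first annotated start is shown for 4 of the 5 genes, because the order of the groups at the start region differed between genes. The sequences are RefSeq's (GRCm38.p6, the mm10 coordinates), written 5′ to 3′ on the gene's strand. They run up to the last base before the start or, for B4galnt2 and St6gal1, before the gene body. B4galnt2 is shown for chr11:95914961-95915121 (minus strand), Cmah for chr13:24327154-24327403 (plus), St6gal1 for chr16:23224490-23224728 (plus) and Hs3st3b1 for chr11:63922285-63922534 (minus). Capitals mark a match to 1 of 6 motifs searched on both strands.
B4galnt2: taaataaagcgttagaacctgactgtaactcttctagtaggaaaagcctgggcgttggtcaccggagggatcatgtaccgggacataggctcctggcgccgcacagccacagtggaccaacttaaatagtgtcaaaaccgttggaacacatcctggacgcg
Cmah: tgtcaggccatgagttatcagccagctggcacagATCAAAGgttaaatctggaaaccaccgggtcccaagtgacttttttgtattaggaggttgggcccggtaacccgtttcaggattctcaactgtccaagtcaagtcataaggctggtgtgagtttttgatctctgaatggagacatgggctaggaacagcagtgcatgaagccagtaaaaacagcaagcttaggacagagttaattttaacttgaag
St6gal1: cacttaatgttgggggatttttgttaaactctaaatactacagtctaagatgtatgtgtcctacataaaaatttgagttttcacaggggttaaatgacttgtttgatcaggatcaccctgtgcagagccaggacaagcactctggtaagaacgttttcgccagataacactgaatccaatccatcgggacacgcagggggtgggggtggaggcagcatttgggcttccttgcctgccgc
Hs3st3b1: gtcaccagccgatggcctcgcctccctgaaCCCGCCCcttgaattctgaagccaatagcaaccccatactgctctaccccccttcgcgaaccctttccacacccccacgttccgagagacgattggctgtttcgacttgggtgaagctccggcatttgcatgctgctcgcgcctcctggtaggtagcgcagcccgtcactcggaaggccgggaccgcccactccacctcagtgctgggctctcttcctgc
The letters searched were CTTTGAT for TCF/LEF, AGATAAG for GATA factors, CAAAGTCCA for HNF4, TTTATNG for CDX factors, TGTTTAC for forkhead factors and GGGCGGG for KLF/SP, counted over the 250 bases before each start. The Cmah window held a TCF/LEF match at -216 (first base, counted from the start), present in 2.82% of 21263 promoters. The Hs3st3b1 window held a KLF/SP match at -220, and B4galnt2 held 1 at -71, outside the stretch shown. KLF/SP matches were present in 31.1% of promoters, and the St6gal1 window held none of the 6 motifs. The other motifs were present in 2.45% (GATA), 0.390% (HNF4), 8.79% (CDX) and 2.62% (forkhead) of promoters. A match is a description of letters, not of a bound site. GC content was 62.4% at Hs3st3b1, 58.4% at B4galnt2, 47.2% at St6gal1 and 45.6% at Cmah, against a median of 55.6% over all promoters. CpG observed over expected was 0.748, 0.850, 0.434 and 0.237 at the same 4 genes, against a median of 0.530. Hs3st3b1 and B4galnt2 therefore lay above both medians, and Cmah and St6gal1 below both.

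Peaks numbered 91313 and 88739 in the LISC lists and 83443 and 93220 in the SISC lists, covering 55.5 and 58.3 Mb in LISC and 49.9 and 63.3 Mb in SISC. The depth of reads is unknown, so absence of a call does not show closed chromatin. All 7 epithelial markers (Epcam, Cdh1 and others) and the stem cell genes Lgr5, Ascl2, Smoc2 and Rnf43 had a region within 1 kb of a gene end in every library. Of the 6 stem cell markers, 4 and 5 had one in LISC and 6 and 5 in SISC, with Olfm4 called in both SISC libraries and neither LISC library, and Axin2 in 1 library of each group. Such regions were called at 1 of 6 immune markers in each LISC library and at 2 of 6 in each SISC library, with Ptprc at none, and at 3 and 2 of 6 stromal and endothelial markers in LISC and 4 and 3 in SISC, with Pecam1 at none. Goblet markers gave 4 and 5 of 7 in LISC and 5 and 5 in SISC. The part of such cells in the values below was not tested. In bulk libraries, fewer cells with open chromatin and less opening per cell cannot be told apart. Y-chromosome peaks were called in replicate 1 (8 in LISC, 6 in SISC) and not in replicate 2 of either group, and none of the 5 genes lies there. The replicates of a group thus differed in more than the strength of their peaks.

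Across the 5 genes, 30 regions were LISC-only (17.3%), 2 were SISC-only (1.16%), 95 were shared (54.9%) and 46 had another pattern. Over all merged regions these shares were 10.2% LISC-only, 7.96% SISC-only and 48.2% shared, and over regions within 100 kb of any protein-coding gene 9.4%, 7.86% and 49.3%. The LISC libraries held 140 and 145 of the 173 regions, and the SISC libraries 104 and 117. Cmah and Hs3st3b1 together gave 23 of the 30 LISC-only regions, with 12 and 11. St6gal1 and B4galnt2 had 3 each and Fut2 had 1. Inside the bodies of the 5 genes lay 49 regions, of which 16 were LISC-only, 0 SISC-only and 16 shared. Genome-wide, the regions inside gene bodies were 6647 LISC-only, 5175 SISC-only, 36689 shared and 23195 of another pattern. LISC-only regions had a median width of 540 bp and shared regions 802 bp, against 484 and 888 bp genome-wide. The authors' −log10 q is larger for peaks that stand out more surely from the library's background. The LISC-only regions had −log10 q values of 6.29 to 145 (median 20.9) in LISC replicate 1 and 5.45 to 91.4 (median 15.7) in LISC replicate 2, where the lowest value in each whole list was 2.42 and 2.35. The SISC-only count was 14 with SISC replicate 1 left out, 5 without LISC replicate 1 and 4 without SISC replicate 2. Among the 41721 strongest peaks of each list, LISC-only regions numbered 18 and SISC-only regions 8, beside 9.80% and 8.48% of all regions in that setting.

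**Figure D1:**
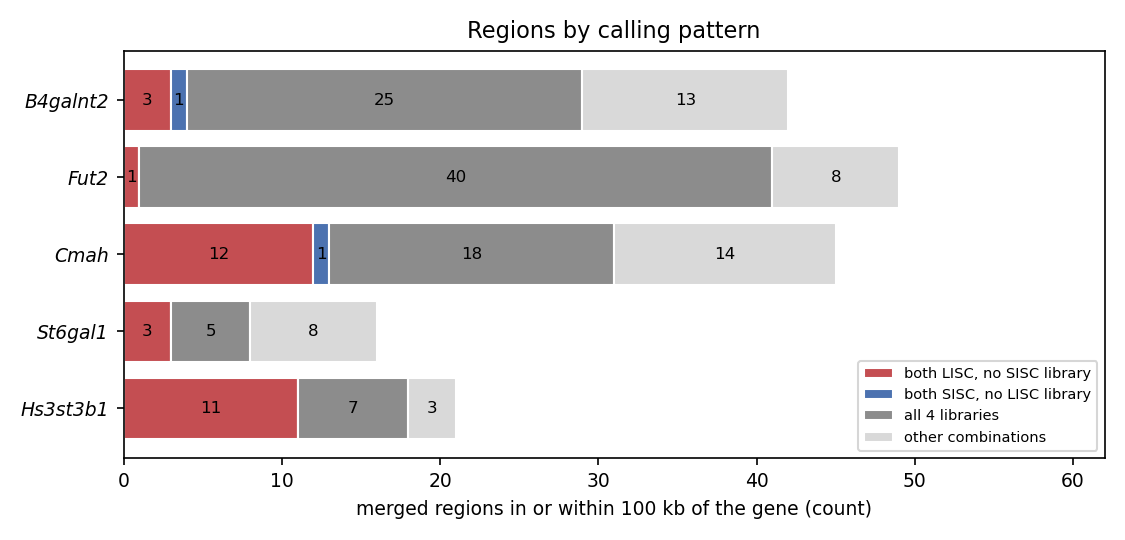
Number of merged regions in or within 100 kb of each gene, split by calling pattern (LISC-only, SISC-only, all 4 libraries, other). Cmah and Hs3st3b1 hold 12 and 11 LISC-only regions, while Fut2 holds 40 regions called in all 4 libraries.

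At the edge of the 100 kb limit, the farthest region counted for Fut2 lay 99.7 kb away and was called in 3 libraries, and the nearest left out lay at 103.7 kb and was shared, with −log10 q values of 176 and 80.3 in LISC and 131 and 176 in SISC. For Cmah these stood at 96.5 kb, called in SISC replicate 2 alone, and at 107.1 kb, a shared region with 175 and 144 in LISC and 62.3 and 55.2 in SISC. For St6gal1 they stood at 96.3 kb (shared) and 108.0 kb, for B4galnt2 at 91.8 kb (shared) and 102.8 kb, and for Hs3st3b1 at 81.1 kb (shared) and 101.1 kb. Those last 3 regions left out were called in 1 or 2 libraries. None of the 10 edge regions was LISC-only or SISC-only.

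Fut2 (gene 14344, chromosome 7, 45648591 to 45666394, 17.8 kb) lay in crowded, mostly shared chromatin. Of its 49 regions, 40 were shared, a number reached by 0.0959% of 21887 protein-coding genes, and 17 other genes lay in or reached into its window. These were Plekha4, Hsd17b14, Bcat2, Fgf21, Fut1, Izumo1, Rasip1 and Mamstr below Fut2 and Sec1, Ntn5, Car11, Dbp, Sphk2, Rpl18, Fam83e, Spaca4 and Sult2b1 above it. A single Fut2 region was LISC-only, and 59.1% of genes had at least 1. Libraries were compared at these regions by rank. Each list was cut to its strongest 83443 peaks by −log10 q, and each region was given its percentile, with 100 at the top. A region was ranked higher in LISC when both LISC percentiles lay above both SISC percentiles, and the converse for SISC. Of 55597 shared regions ranked in all 4 lists genome-wide, 23.3% were higher in LISC and 33% higher in SISC.

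All 3 shared regions in the Fut2 body were ranked higher in LISC. The region near the lower gene end (45649182 to 45649896) had −log10 q values of 180 and 80.8 in LISC, against 14.8 and 10.5 in SISC. Its percentiles were 84.5 and 78.2 in LISC and 26.3 and 10.5 in SISC, and the authors' fold enrichment over local background was 11.1 and 6.54 in LISC and 4.32 and 3.32 in SISC. Both LISC libraries were thus well above both SISC libraries on each scale. The region over the upper gene end (45665389 to 45666586) had −log10 q values of 54.4 and 44.8 in LISC and 10.7 and 11.0 in SISC. These are the best peaks anywhere in the merged region, with summits spread over 827 bp. At the gene end itself SISC replicate 1 had no peak (nearest 397 bp away), and the peak of SISC replicate 2 had 8.61. The region between them (45654091 to 45655566) had 165 and 75.0 in LISC and 58.2 and 71.8 in SISC, so that LISC replicate 2 and SISC replicate 2 nearly met in −log10 q while their percentiles were 76.5 and 66.3. Counting a library only when its peaks covered 50% of a region, or keeping the strongest 41721 peaks of each list, left 1 of these 3 body regions ranked higher in LISC.

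The same order continued past the gene. A run of 8 consecutive shared regions, from 45616318 to 45668183 (51.9 kb), was ranked higher in LISC, a length that 10 of 9132 such runs (0.110%) reached genome-wide. The strongest, 4.03 kb below Fut2 inside Mamstr (45643258 to 45644557), had −log10 q values of 556 and 280 in LISC and 56.6 and 71.8 in SISC, at percentiles of 98.5 and 98.1 in LISC and 61.4 and 66.3 in SISC. Mamstr encodes a transcriptional coactivator of muscle genes. The lowest region of the run, over the lower end of Fut1 and within 1 kb of Fgf21 (45616318 to 45617997), had 179 and 119 in LISC and 91.3 and 88.1 in SISC. Fut1 encodes the sister enzyme that, in humans, makes the H antigen on red blood cells. The region of the run inside Rasip1, near its lower end (45628398 to 45629376) differed little, with a −log10 q of 321 and 215 in LISC and 268 and 242 in SISC. When peaks were ranked by fold enrichment, an alternative chosen after seeing the data, the longest run was 4, while all 3 body regions kept the order. The run was 5 at 50% cover and 5 among the strongest 41721 peaks, and 8 with any single library left out.

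The order changed 3.45 kb above the gene. The region at 45669841 to 45670443 had −log10 q values of 132 and 73.5 in LISC and 166 and 135 in SISC, and was ranked higher in SISC. At Sec1, a further fucosyltransferase gene of this cluster, the region over the lower gene end (45676598 to 45678072) was ranked higher in LISC, with 152 and 45.3 in LISC and 24.3 and 31.7 in SISC. Its summits were spread over 1055 bp. The region at 45682697 to 45683116, inside the same gene, was ranked higher in SISC, with 107 and 72.6 in LISC and 175 and 152 in SISC. The single LISC-only region of the Fut2 window (45679990 to 45680307), also inside Sec1, was weak, with 17.2 and 10.1 in LISC. In all, 15 of the 40 shared regions were ranked higher in LISC, 10 higher in SISC, and 15 overlapped. Beyond 16.3 kb above Fut2, 3 regions were ranked higher in LISC, 5 higher in SISC and 10 overlapped. With SISC replicate 1 left out, the LISC-only minus SISC-only count of the Fut2 window was -2, against 1 with all libraries. LISC-only regions there numbered 3 without LISC replicate 1, 2 without LISC replicate 2, and 5 with the 41721 strongest peaks per list. The 3 shared regions that ranked highest by mean percentile lay at other genes. That inside Bcat2 (45588814 to 45589609) had 403 and 244 in LISC and 361 and 297 in SISC, and that at an end of Sult2b1 (45759199 to 45760142) had 410 and 202 in LISC and 324 and 256 in SISC, both ranked higher in LISC. That between Hsd17b14 and Bcat2 (45567832 to 45568906) had 383 and 220 in LISC and 405 and 282 in SISC, with overlapping percentiles.

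B4galnt2 (gene 14422, chromosome 11, 95863559 to 95914960, 51.4 kb, minus strand) had few group-only regions. Its 42 regions were called in nearly equal number, 32 and 32 in the LISC libraries and 29 and 31 in the SISC libraries. Of these 3 were LISC-only, 1 was SISC-only, 25 were shared and 13 had another pattern. At least 3 LISC-only regions were found at 20.0% of protein-coding genes. The region over its start (95913990 to 95915152) had −log10 q values of 45.0 and 74.6 in LISC and 90.4 and 95.6 in SISC. The percentiles there were 51.8 and 76.4 in LISC and 72.6 and 73.7 in SISC, so the groups overlapped. The strongest region (95858315 to 95860536), 3.02 kb past the other end of the gene, had 530 and 274 in LISC and 497 and 402 in SISC, also with overlapping percentiles. A region over the lower end of Phospho1 (95823808 to 95825225) had 323 and 180 in LISC and 281 and 239 in SISC and was ranked higher in LISC. A region inside Abi3 (95836290 to 95837450) had 297 and 169 in LISC and 360 and 278 in SISC and was ranked higher in SISC. Zfp652 and Gngt2, the remaining neighbours besides Igf2bp1, held none of these regions.

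No group-only region lay within the body of B4galnt2. Of 3 shared regions there, that at 95876159 to 95876775 was ranked higher in SISC, with a −log10 q of 53.5 and 33.9 in LISC and 55.9 and 56.4 in SISC, and the other 2 overlapped. The strongest of the LISC-only regions (95789013 to 95789926) lay 73.6 kb away with 44.8 and 57.8 in LISC. The other 2 LISC-only regions, with 20.1 and 6.78 at the lower one and 25.3 and 12.1 at the upper, lay within Igf2bp1, an RNA-binding protein gene. The SISC-only region (95915938 to 95916172), 978 bp upstream of the gene, was faint, with 6.73 and 7.59 in SISC. Of 24 ranked shared regions 5 were higher in LISC, 8 higher in SISC and 11 overlapped. Within 50 kb, and likewise without SISC replicate 1, the LISC-only minus SISC-only count was -1, against 2 in the full window with all libraries. Without LISC replicate 1, and likewise without LISC replicate 2, LISC-only regions numbered 6.

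**Figure D2:**
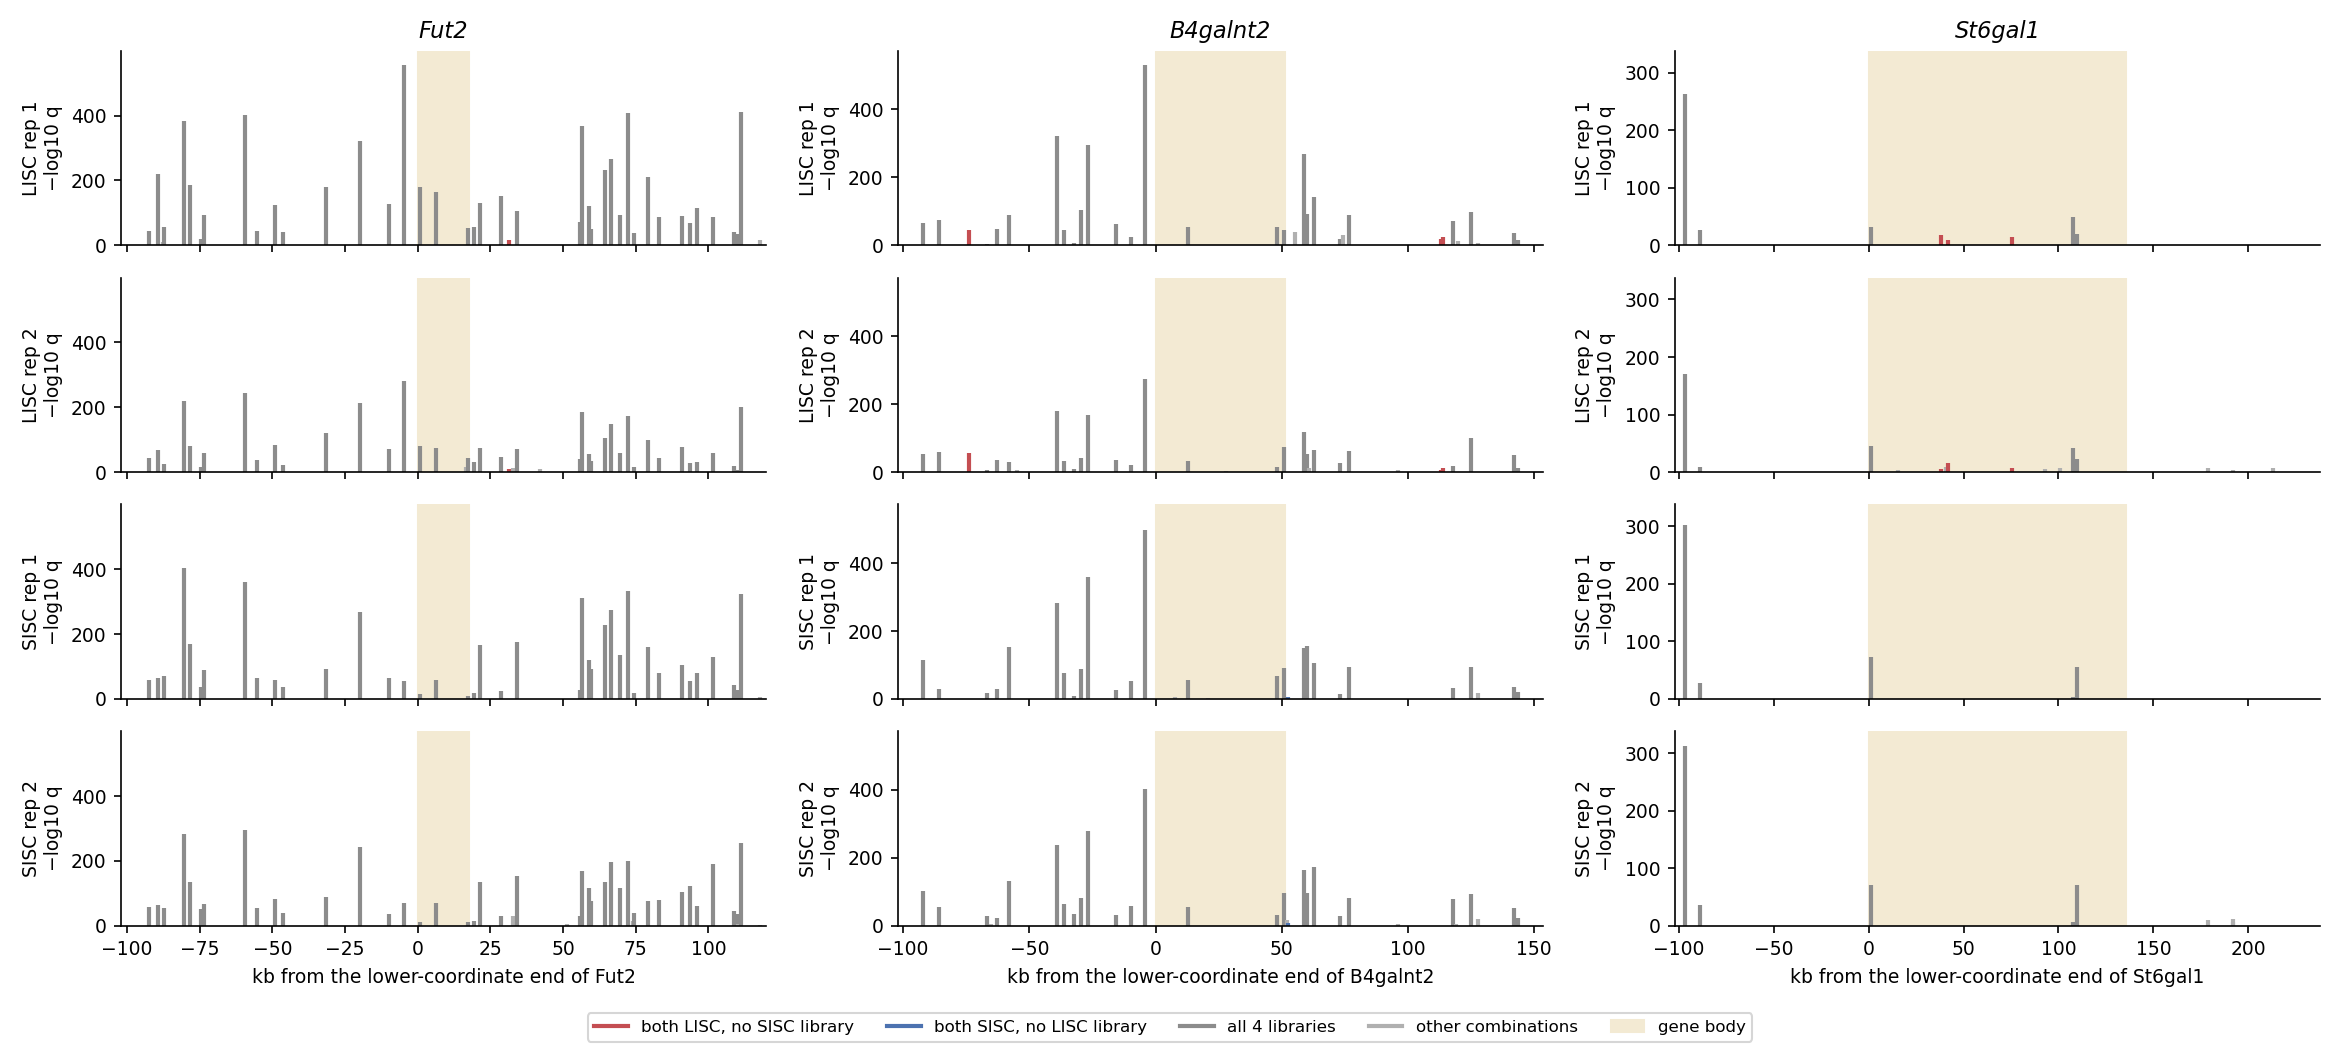
Peaks in each library around Fut2, B4galnt2 and St6gal1, with height the authors' −log10 q and position in kb from the lower-coordinate end of the gene; shading marks the gene body and colours the calling pattern. At Fut2 the peaks in and just below the gene are taller in both LISC libraries, such as 556 and 280 against 56.6 and 71.8 in SISC at the region 4.03 kb below it.

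Cmah (gene 12763, chromosome 13, 24327404 to 24477289, 149.9 kb, plus strand) held 45 regions, called 37 and 33 times in the LISC libraries and 21 and 25 times in the SISC libraries. Of these 12 were LISC-only, a number reached by 51 protein-coding genes (0.233%), 1 was SISC-only, 18 were shared and 14 had another pattern. Within the window 10 of the LISC-only regions lay inside the gene, 79.8 to 130 kb downstream of its start. No SISC peak was called between 24402323 and 24481779, a stretch of 79.5 kb that held 14 regions. Of 95803 stretches free of SISC peaks genome-wide, 8776 held at least 1 LISC-only region. Among those, 21 (0.0219% of all stretches) held 10 or more, and the largest held 29.

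The LISC-only regions in the Cmah body spanned a wide range of strength. The strongest (24436935 to 24437999) had −log10 q values of 145 and 88.1 in LISC, and that at 24452031 to 24453310 had 110 and 91.4. At 24450559 to 24451350 the values were 118 and 47.8, and at 24430997 to 24431808 they were 76.9 and 50.5. These 4 regions stood at percentiles of 64.7 to 81.1 in the LISC lists, above the middle of each. Among the faintest, that at 24406926 to 24407457 had 8.39 and 12.6, and that at 24454010 to 24454335 had 6.29 and 18.4. That both LISC libraries called these regions is part of the definition of LISC-only. A further 4 regions of the stretch were called in 1 LISC library each.

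The Cmah start did not share this pattern. The region over it (24326793 to 24327811) had −log10 q values of 20.7 and 10.4 in LISC and 17.0 and 14.7 in SISC, at percentiles of 29.4 and 17.7 in LISC and 30.1 and 20.9 in SISC, so the groups overlapped. A region 4.73 kb downstream (24332136 to 24332999) had 77.3 and 75.0 in LISC and 9.90 and 13.4 in SISC, at percentiles of 66.2 and 76.5 in LISC and 15.5 and 18.1 in SISC. The next 2 shared regions of the body were also ranked higher in LISC. That at 24337827 to 24338446 had 34.7 and 16.5 in LISC and 15.5 and 18.3 in SISC, so the −log10 q of LISC replicate 2 lay below that of SISC replicate 2 although its percentile (32.5) lay above both SISC percentiles (27.6 and 27.3). That at 24395727 to 24396254 had 24.3 and 22.9 in LISC and 13.3 and 7.80 in SISC. The second annotated start at 24415122 had no peak over it in any library. The nearest peak lay 1347 and 7665 bp away in the LISC libraries and 18868 and 12800 bp away in the SISC libraries.

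Outside the body the Cmah window was mixed. There were 2 LISC-only regions 34.0 and 32.5 kb upstream, with a −log10 q of 19.4 and 15.02 at the farther one and 7.998 and 17.8 at the nearer. The SISC-only region (24236715 to 24237098) lay 90.3 kb upstream inside Carmil1, an actin regulator gene, with 56.4 and 69.9 in SISC. Close to it at 24234340 to 24235039, SISC had 74.5 and 77.2, against 7.79 in LISC replicate 1 and no peak in LISC replicate 2. Upstream, 4 shared regions were ranked higher in LISC and 5 higher in SISC. Of those higher in SISC, that at 24253739 to 24254533 had 48.1 and 12.6 in LISC and 84.0 and 104 in SISC. The strongest shared region, over the upper end of Carmil1 (24279412 to 24281527), had 339 and 159 in LISC and 239 and 184 in SISC and was ranked higher in LISC. The next strongest were ranked higher in SISC: that inside Carmil1 (24260740 to 24261854) had 191 and 120 in LISC and 235 and 220 in SISC, and that inside Ripor2 (24565188 to 24566551) had 215 and 128 in LISC and 235 and 240 in SISC. With the 41721 strongest peaks a list, the window held 5 LISC-only and 6 SISC-only regions, a difference of -1 against 11 with all peaks, while the body alone stood at 5 LISC-only and no SISC-only region. Leaving out 1 library gave 12 to 17 LISC-only regions. Without SISC replicate 1, SISC-only regions numbered 6 and the difference was 7, and without LISC replicate 1 they numbered 2.

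St6gal1 (gene 20440, chromosome 16, 23224729 to 23360350, 135.6 kb, plus strand) was sparser. Its 16 regions were called 8 and 15 times in the LISC libraries and 5 and 8 times in the SISC libraries, and LISC replicate 2 alone called 5 of them. Of the 16 regions 3 were LISC-only, 0 SISC-only and 5 shared, and 20.0% of protein-coding genes had at least 3 LISC-only regions. Rfc4, Adipoq, Rtp1 and Masp1 lay in or reached into its window. The start region (23224591 to 23226882), which spans both of the first 2 annotated starts, had −log10 q values of 32.4 and 46.1 in LISC and 73.7 and 71.7 in SISC. Its percentiles were 42.4 and 63.8 in LISC and 67.9 and 66.3 in SISC, so it was ranked higher in SISC. These are the best peaks anywhere in the merged region, with summits spread over 516 bp, and they lay over the first start. Over the second start the peaks had −log10 q values of 9.76 and 11.6 in LISC and 12.4 and 71.7 in SISC. The third annotated start at 23290470 had no peak over it, with the nearest 9563 and 9590 bp away in LISC and 41735 and 41738 bp away in SISC.

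Inside the St6gal1 body, regions of opposite order lay side by side. That at 23331856 to 23333133 had −log10 q values of 49.9 and 42.0 in LISC and 3.73 and 7.32 in SISC, at percentiles of 54.7 and 61.1 in LISC and 0.471 and 0.617 in SISC. Its summits were spread over 587 bp, so the libraries may not mark the same site in it. The next region, after a gap of 789 bp (23333923 to 23334623), had 19.7 and 22.5 in LISC and 55.6 and 70.4 in SISC, at percentiles of 28.1 and 42.1 in LISC and 60.9 and 65.8 in SISC. The groups did not overlap at either region, with LISC higher at the first and SISC higher at the next. Such pairs, at most 1 kb apart, were found 3 times at the 5 genes, once each at St6gal1, Cmah (gap 775 bp) and B4galnt2 (gap 586 bp). Genome-wide they were 570 of 4711 pairs of neighbouring ranked regions this close (12.1%).

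All 3 LISC-only regions of St6gal1 lay in its body and were faint. They had −log10 q values of 17.5 and 5.58 (23262831 to 23263173), 9.83 and 16.5 (23266102 to 23266735), and 14.3 and 6.43 (23300033 to 23300623) in LISC. Their number was 8 without LISC replicate 1, since the regions that LISC replicate 2 alone had called then count, and 1 among the strongest 41721 peaks. The strongest region of the window (23127351 to 23128465), at an end of Rfc4, a replication factor gene, lay 96.3 kb away and had 263 and 170 in LISC and 303 and 313 in SISC.

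Hs3st3b1 (gene 54710, chromosome 11, 63884693 to 63922284, 37.6 kb, minus strand) had the highest share of LISC-only regions among the 5 genes. Of 21 regions, called 20 and 21 times in the LISC libraries and 8 and 8 times in the SISC libraries, 11 were LISC-only (52.4%), 0 SISC-only and 7 shared. At least 11 LISC-only regions were found at 70 protein-coding genes (0.320%). Of the 11, 6 lay downstream of the gene, 3 in its body and 2 upstream. No SISC peak was called from 63544571 to 63903218, a stretch of 358.6 kb that begins far outside the window. Its part inside the window held 7 regions, all LISC-only, over 68.9 kb from 63826018 to 63894892. The whole stretch held 8 LISC-only regions of 9. That count was reached by 46 of 95803 stretches (0.0480%), while 8776 stretches held at least 1 LISC-only region.

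The strongest LISC-only regions at Hs3st3b1 were that in the body at 63893877 to 63894892, with a −log10 q of 75.6 and 50.5 in LISC, and that 21.6 kb downstream at 63862744 to 63863091, with 57.0 and 72.6. Upstream, the region at 63942152 to 63942634 had 38.4 and 35.3. The faintest in LISC replicate 2, at 63932045 to 63932479, had 10.3 and 5.45. A body region at 63903219 to 63904308 had 91.9 and 102 in LISC and 16.2 in SISC replicate 1, with no peak in SISC replicate 2. Regions missing from both SISC lists thus ranged from faint to 75.6 in LISC replicate 1, while the strongest regions of the window were called in SISC as well.

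Shared regions of Hs3st3b1 were also ranked higher in LISC or overlapped. The start region (63921591 to 63922682) had −log10 q values of 382 and 180 in LISC and 219 and 98.6 in SISC, at percentiles of 95.3 and 93.4 in LISC and 88.3 and 74.5 in SISC. The body region at 63914128 to 63914990 had 317 and 200 in LISC and 139 and 87.9 in SISC. The upstream region at 63956320 to 63957749 had 326 and 156 in LISC and 131 and 137 in SISC. The region 2.84 kb upstream (63925123 to 63925665) had 73.8 and 34.7 in LISC and 31.1 and 46.3 in SISC, where the −log10 q values crossed but the percentiles, 64.9 and 55.4 in LISC and 45.9 and 54.0 in SISC, did not. The authors' fold enrichment did not give the same order. It was 8.57 and 5.91 in LISC and 10.3 and 6.04 in SISC at the start region, 11.9 and 9.47 in LISC and 13.3 and 9.29 in SISC at the body region, and 14.8 and 8.90 in LISC and 12.7 and 11.3 in SISC at the farther upstream region. By −log10 q, of the 7 shared regions 4 were ranked higher in LISC, 0 in SISC, and 3 overlapped. With any single library left out 12 regions were LISC-only. Among the strongest 41721 peaks there were 4, and the stretch held 3.

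**Figure D3:**
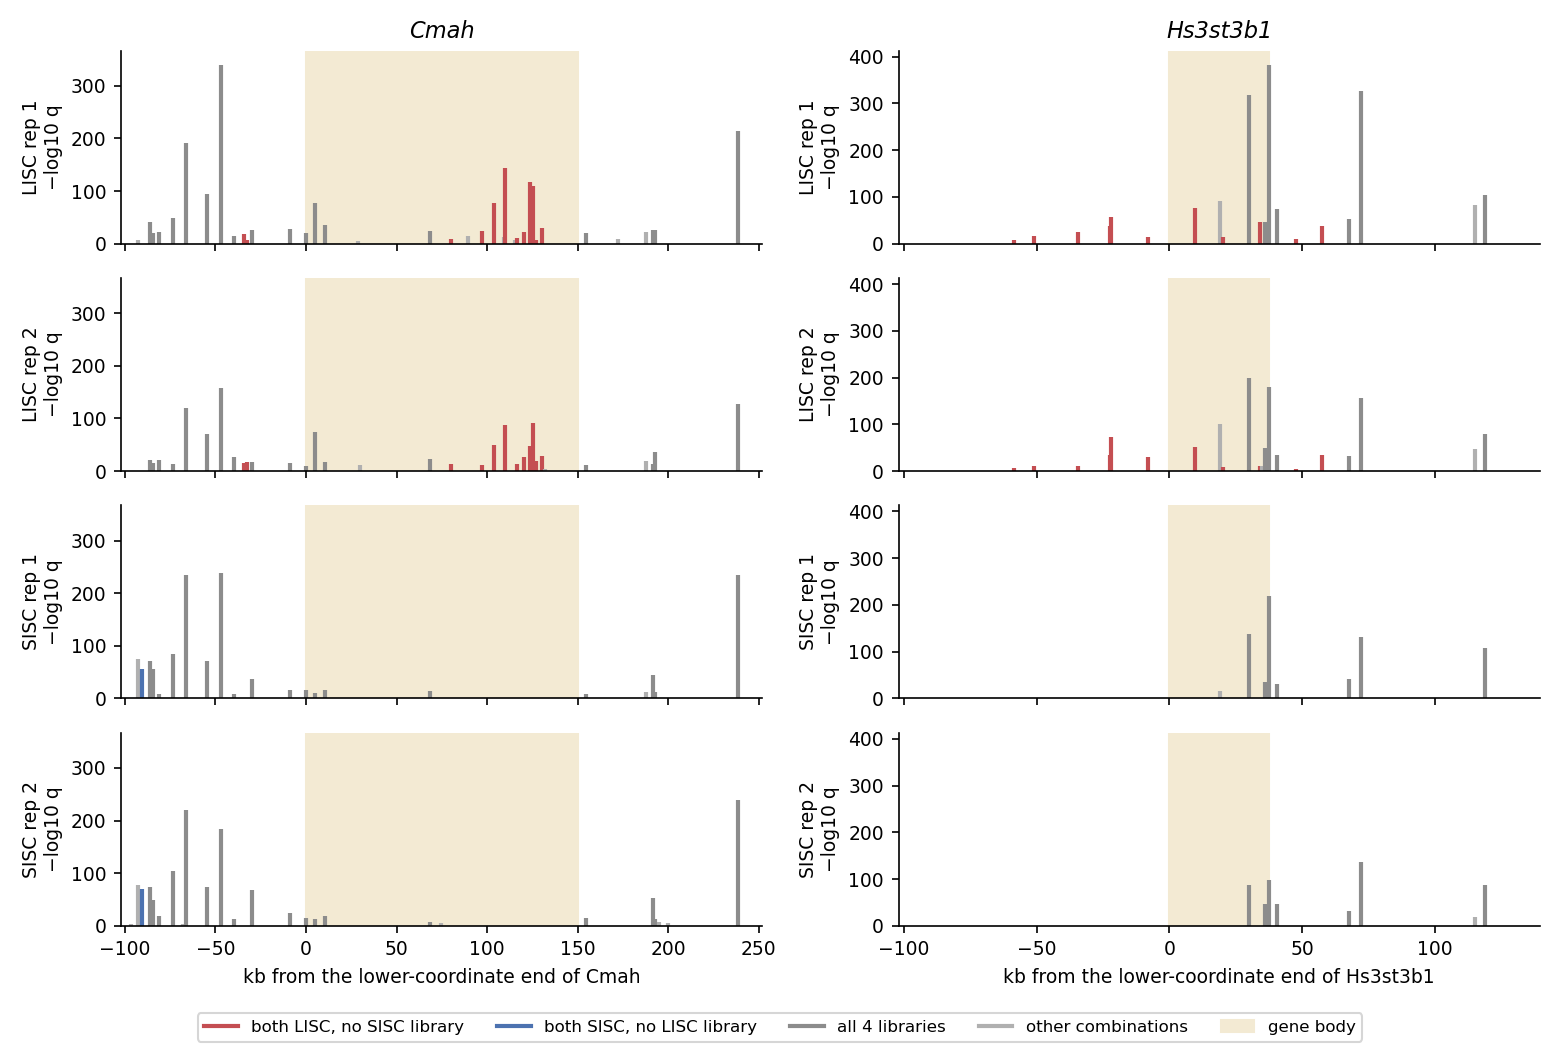
Peaks in each library around Cmah and Hs3st3b1, with height the authors' −log10 q and position in kb from the lower-coordinate end of the gene; shading marks the gene body and colours the calling pattern. The 10 LISC-only regions in the Cmah body and the 7 at and below Hs3st3b1 lie where neither SISC library has a peak.

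Over the 94 shared regions of the 5 genes that could be ranked, 34 were higher in LISC, 29 higher in SISC and 31 overlapped, beside 23.3% and 33% genome-wide. The order of these counts turned in some settings. Ranked by fold enrichment 25 were higher in LISC and 29 higher in SISC, and at 50% cover 25 and 26. The genes divided differently. Fut2 had 15 higher in LISC and 10 higher in SISC, and Hs3st3b1 had 4 and 0, while B4galnt2 had 5 higher in LISC and 8 higher in SISC, and St6gal1 had 1 and 4. Cmah gave 9 higher in LISC and 7 higher in SISC. Of the 4 genes with an annotated start, the start region was ranked higher in LISC at Hs3st3b1 and overlapped at B4galnt2 and Cmah. At St6gal1 it was ranked higher in SISC by its best peaks, which lay over the first start. Among the strongest 41721 peaks of each list, 16 were higher in LISC and 16 higher in SISC.

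**Figure D4:**
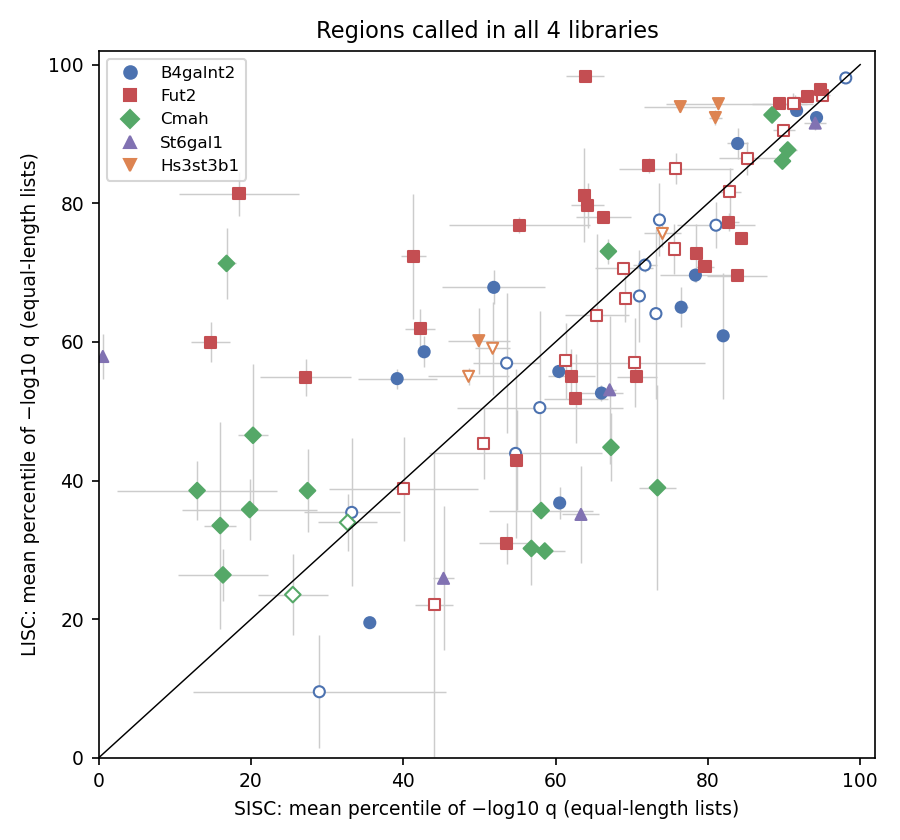
Mean percentile of −log10 q in LISC (vertical) against SISC (horizontal) for the regions of the 5 genes called in all 4 libraries and ranked in equal-length lists; bars span the 2 libraries of a group, and filled markers do not overlap between groups. Points above the diagonal include the Fut2 body regions and 4 Hs3st3b1 regions.

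Other enzymes of the same pathways were counted in 4 lists, leaving the 5 genes out. A gene leaned to LISC when LISC-only regions in or within 100 kb outnumbered SISC-only ones. Among all protein-coding genes 32.2% leaned to LISC and 34.5% to SISC, with a median difference of 0 regions. Of 108 listed genes 50 leaned to LISC (46.3%) and 34 to SISC (31.5%), with a median of 0. A gene with no group-only region cannot lean. Such genes were 4865 of all 21887 and 7 of the 108, so the shares are not on an equal footing. Without SISC replicate 1 these counts were 33 and 60, when 17.3% of all genes leaned to LISC and 58.2% to SISC. Within gene bodies alone they were 24 and 21, when 12.5% of all genes leaned to LISC and 11.1% to SISC.

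The fucose list held 10 LISC-leaning and 3 SISC-leaning genes of 14, with a median difference of 1.5 regions. Gmds, which starts the making of GDP-fucose, had 16 LISC-only and 3 SISC-only regions, and Fpgt, of the fucose salvage route, had 11 and 0. The fucosyltransferase gene Fut9 had 6 and 0, and Fut11 had 6 and 1. On the other side Fut8, the core fucosyltransferase, had 3 LISC-only and 8 SISC-only regions, Pofut1, which fucosylates Notch receptors, 1 and 3, and Fut7 0 and 2. Fut1 shares its window with Fut2 and leaned to LISC by the same weak region in Sec1. Without SISC replicate 1 the list stood at 8 and 5, within 50 kb 6 genes leaned to LISC, and within gene bodies 2 did and 0 leaned to SISC. Within 50 kb 26.8% of all genes leaned to LISC and 29.2% to SISC.

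The sialic acid list held 12 LISC-leaning and 8 SISC-leaning genes of 24, with a median of 0.5. St6galnac3 had 7 LISC-only and 0 SISC-only regions and the ganglioside synthase gene St3gal5 had 6 and 0. Of the adjoining genes St6galnac4 and St6galnac6, whose windows overlap, the first had 8 and 4 and the next 7 and 4. St8sia1 had 1 LISC-only and 7 SISC-only regions and Cmas, which activates sialic acid for transfer and for Cmah, 0 and 5. St3gal1 had 1 and 5 and St8sia3 had 0 and 3. The windows of Cmas and St8sia1 overlap, and all 5 SISC-only regions of Cmas were also counted for St8sia1. The order of the counts turned in 4 settings, given as LISC-leaning and SISC-leaning genes: 9 and 13 without SISC replicate 1, 5 and 8 in gene bodies, 10 and 11 at equal list lengths, and 8 and 9 among the strongest 41721 peaks. Of all genes, 17.3% leaned to LISC and 58.2% to SISC without SISC replicate 1, and 12.5% and 11.1% did in gene bodies. These shares were 29.4% and 36.6% at equal list lengths and 23.4% and 30.2% among the strongest peaks.

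The list of mucin-type O-glycan and terminal GalNAc transferases held 16 LISC-leaning and 12 SISC-leaning genes of 43, with a median of 0. Galnt18 had 5 LISC-only and 0 SISC-only regions, C1galt1, which makes the core structure of most mucin glycans, 4 and 0, Galnt10 5 and 1, and Galnt7 6 and 2. Gcnt2, which branches chains into the I antigen, had 0 and 9, B3gnt7 0 and 6, B4galt3 1 and 5, and Galnt11 0 and 2. The heparan sulfate list held 12 and 11 of 27, with a median of 0. Extl3 had 7 LISC-only regions and 1 SISC-only region and Extl2 had 5 and 2. Among relatives of Hs3st3b1, Hs3st4 had 5 and 0 and Hs3st2 had 3 and 0, while Hs3st5 had 0 and 3. Sulf2, which removes sulfate from heparan sulfate, had 3 and 7, Ndst3 0 and 4, and Hs6st2 0 and 2. Without SISC replicate 1 the O-glycan list stood at 10 and 24 and the heparan sulfate list at 6 and 18. Of all genes, 17.3% leaned to LISC and 58.2% to SISC in that setting. Within gene bodies the lists stood at 10 and 7 and at 7 and 6, beside 12.5% and 11.1% of all genes. With windows around peak summits the O-glycan list turned to 14 and 18. It was even at 50% cover (17 and 17) and within 50 kb (16 and 16). The heparan sulfate list turned to 10 and 12 within 50 kb, and was 11 and 11 at equal list lengths and at 50% cover. Of all genes, 32.4% and 34.5% leaned to LISC and SISC with summit windows, and 26.8% and 29.2% within 50 kb.

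**Figure D5:**
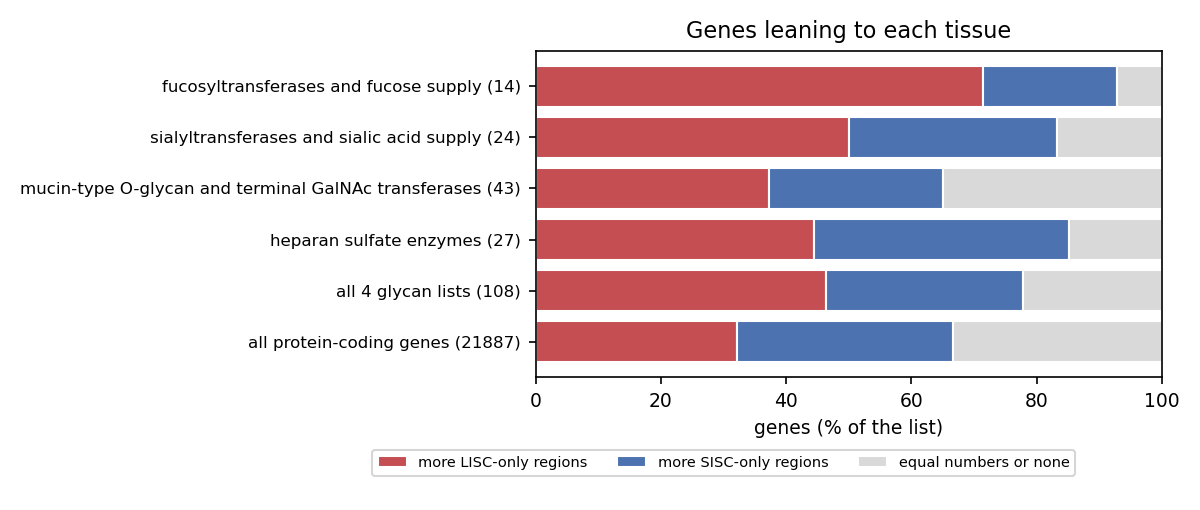
Share of genes in each glycan list (number of genes in parentheses) leaning to LISC, to neither or to SISC by group-only regions in or within 100 kb, beside all protein-coding genes. The fucose list has 10 of 14 genes leaning to LISC, against 32.2% of all genes. Genes with no group-only region count as leaning to neither.

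Genes with the most similar calling were found by the Euclidean distance between counts over the 15 possible patterns of the 4 libraries, leaving out genes that share a region. Nearest to Hs3st3b1 were Tnni3k (distance 2.24) with 11 LISC-only, 0 SISC-only and 7 shared regions, and Esr1 (3) with 9, 1 and 6. Nearest to Cmah were Sorbs2 (4.12) with 10, 2 and 19 and Abcc4 (4.80) with 8, 2 and 19. Fut2 was nearest to Fosb (4) with 38 shared regions and Dcst1 (4.24) with 37. B4galnt2 was nearest to Rinl (2) and Heg1 (2.45), each with 25 shared regions, and St6gal1 to Iqca (1.73) and Ackr3 (2.65), each with 4 LISC-only and 0 SISC-only regions. LISC-only regions are part of the patterns compared, so a near gene has a like number of them by construction.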

How the data were processed

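ATAC-seq peak lists of 4 libraries (LISC replicates 1 and 2, SISC replicates 1 and 2) were used. The submitters' processing notes name MACS2 2.2.7.1, Bowtie2 2.3.4.1, cutadapt 3.4, bedtools and Picard, and the mm10 build; order, settings, Tn5 shift and calling threshold were not stated there or in the labels. In the deposited files the authors gave 1 list per library, with a fold enrichment (a ratio) at each summit, its −log10 p and −log10 q, and a score that is 10 times the −log10 q in nearly every peak. These values grow with depth, so regions were called higher in a group by ranks within each list, with percentiles from lists cut to 83443 peaks. Raw values of LISC and SISC are set side by side as a description only, and any difference in depth enters them. Read counts were not used here, so depth is unknown.

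Regions were merged and counted with Python 3.11.15, numpy 2.4.6 and pandas 2.3.3 and drawn with matplotlib 3.10.9; the counting was tested on simulated data. Gene bodies, starts and promoter sequences came from RefSeq tables (GRCm38.p6, 21887 protein-coding genes); exons were not used here. The promoter table matched 4 of the 5 genes, and Fut2 is named only. Genes Tsta3 and Fuk were matched as Gfus and Fcsk. The 5 genes and all lists were chosen with earlier results of these data known. The rule named the 5 genes, their neighbours, the strongest 3 regions of each class per gene and those over gene ends, up to 4 genes per list and direction, and the 2 nearest genes by calling pattern. Other regions and genes named were chosen after their values were seen: the rest of the runs and stretches, edge and opposite-order regions, and the values at Fut1 and Sec1. No p-value was computed. Alternatives were the strongest 41721 peaks, equal list lengths, 50% cover, summit windows of 250 bp each side, a 50 kb window, gene bodies alone, each library left out, and ranking by fold.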

Additional observations from a re-analysis of the deposited data

How the results depend on the processing

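LISC-only regions at the 5 genes numbered 30 with all libraries, 18 among the strongest 41721 peaks of each list and 16 in gene bodies, and SISC-only regions 2, 8 and 0; shared regions numbered 95, 51 and 16. At 50% cover 5 regions were SISC-only. Within 50 kb 1 was SISC-only, 55 were shared and 13 ranked higher in SISC. Shared regions ranked higher in LISC and SISC were 16 and 16 among the strongest peaks 9 and 3 in gene bodies, 25 and 29 when ranked by fold enrichment and 25 and 26 at 50% cover, against 34 and 29. With 1 library left out, LISC-only regions numbered 31 to 43, SISC-only 2 to 14 and shared 95 to 99, and 40 to 44 ranked higher in LISC and 36 to 41 higher in SISC. Over all merged regions the LISC-only share then ran from 11.4% to 16.2% and the SISC-only share from 10.5% to 17.7%. LISC-leaning and SISC-leaning genes of the 4 lists each ranged from 33 to 60, and were 24 and 21 in gene bodies. The LISC-only minus SISC-only count turned to -1 for Cmah among the strongest peaks, to -1 for B4galnt2 within 50 kb and without SISC replicate 1, and to -2 for Fut2 without SISC replicate 1. Fewer peaks or windows entered in the strongest, 50 kb and gene body settings; the cause of the other changes was not tested. Of 314 values recomputed, 229 stayed within 1.5 times, 81 moved further and 4 changed sign.

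No paired analysis was possible because the results come from no test, and no label says that a replicate number marks a shared animal or day. With 2 libraries a group, a lone library defines its group when the other is left out. Read depth is unknown, and −log10 q depends on it, so a missing call is not a closed region. Neighbouring regions and genes share sequence, windows and libraries, and are not replicates. Regions were given to genes by distance, and which gene a region acts on was not tested.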
